A study of Mus musculus with 12 samples.

Results

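Radial glia are the stem cells that line the ventricle of the developing cortex, and 10 genes known for marking them or the dorsal territory they occupy were followed here through a mouse model of Arid1a loss. The genes were Pax6, Sox2, Nr2e1, Emx1, Emx2, Nes, Vim, Fabp7, Slc1a3 and Hopx, found by gene symbol, and they are 10 of the 51912 genes listed in each library. Of these 10 genes, 8 had enough counts to be tested, Hopx was counted but too low, and Sox2 had a count of 0 in every library. The libraries came from cerebral cortex of embryos at embryonic day 15.5, all labelled as the same batch.

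The mutant group comprised 6 Emx1-Cre Arid1a conditional mutants and the control group 6 samples whose alleles, Cre included, the labels do not specify. Mutants 1 and 2 were females of litter 1, mutants 3, 5 and 6 were females of litter 2, and mutant 4 was a male of litter 2. Control 6 was a female and control 5 a male of litter 2, control 1 was a female of litter 1, and controls 2, 3 and 4 were males of litter 1. Genotype therefore overlapped in part with litter and with sex. Emx1-Cre recombines in dorsal progenitors and the cells born from them, so interneurons, vessels, microglia and any subcortical tissue in a dissection keep Arid1a. Gene counts per library ran from 643197 in mutant 1 to 3525121 in mutant 3, and mutants 1 and 4 were the shallowest. Arid1a, counted over the whole gene and thus blind to the loss of single exons, measured 396 to 525 CPM (normalised counts relative to library size) in mutants and 464 to 575 CPM in controls; its fitted log2 difference was -0.30 (SE 0.0958, adjusted p = 0.277 in edgeR).

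Radial glia divide at the ventricle to renew themselves and to produce intermediate progenitors and neurons, and their long fibres guide newborn neurons outward. Their identity rests on transcription factors such as Pax6 and Sox2, on the intermediate filament proteins nestin and vimentin, and on glial proteins for lipid binding and glutamate uptake. Emx1 and Emx2 are homeobox genes that mark the dorsal telencephalon, and Emx2 helps set the pattern of cortical areas. Arid1a encodes a subunit of the BAF complex, which remodels chromatin.

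Promoter sequences are shown for 4 of these genes because the results below follow them as pairs whose levels moved together between libraries, Pax6 with Emx1 and Nes with Emx2. Each sequence is the 300 bases from 250 before to 50 after the start of the RefSeq gene on GRCm38.p6, written 5′ to 3′ in lower case. Capitals mark matches, on either strand, to any of 4 motifs that were searched and are spelled out below.
Pax6 (chr2:105668646-105668945, plus strand): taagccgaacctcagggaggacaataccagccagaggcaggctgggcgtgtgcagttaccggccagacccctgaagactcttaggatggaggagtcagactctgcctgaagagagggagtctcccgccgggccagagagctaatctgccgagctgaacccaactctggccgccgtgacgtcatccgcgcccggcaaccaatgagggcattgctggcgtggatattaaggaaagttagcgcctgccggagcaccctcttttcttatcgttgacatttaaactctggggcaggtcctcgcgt
Emx1 (chr6:85187681-85187980, plus strand): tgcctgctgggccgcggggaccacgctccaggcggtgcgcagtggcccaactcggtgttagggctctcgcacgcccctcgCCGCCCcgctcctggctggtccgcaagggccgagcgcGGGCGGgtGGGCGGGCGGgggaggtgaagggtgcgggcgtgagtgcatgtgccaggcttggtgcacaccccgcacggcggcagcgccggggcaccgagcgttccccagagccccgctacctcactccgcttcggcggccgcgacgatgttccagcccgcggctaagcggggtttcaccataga
Nes (chr3:87970843-87971142, plus strand): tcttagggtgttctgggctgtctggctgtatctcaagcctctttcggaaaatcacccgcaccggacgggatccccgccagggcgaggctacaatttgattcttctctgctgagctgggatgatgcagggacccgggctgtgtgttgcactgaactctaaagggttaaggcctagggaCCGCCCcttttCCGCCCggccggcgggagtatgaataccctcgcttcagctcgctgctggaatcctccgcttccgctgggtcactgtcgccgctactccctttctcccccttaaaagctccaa
Emx2 (chr19:59458440-59458739, plus strand): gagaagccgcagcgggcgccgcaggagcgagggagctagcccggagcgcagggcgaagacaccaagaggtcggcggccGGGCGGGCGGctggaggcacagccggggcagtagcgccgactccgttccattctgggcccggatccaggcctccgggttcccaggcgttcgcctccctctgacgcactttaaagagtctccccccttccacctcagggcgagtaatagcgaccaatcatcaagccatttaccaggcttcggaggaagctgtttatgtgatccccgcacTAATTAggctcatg
The Pax6 window, that of the upstream of 2 RefSeq starts, held none of the 4 motifs. The window of the other Pax6 start (chr2:105682213-105682512), not printed, held a SOX core at base 97. Its GC content was 46.3% and it had 16 CpG dinucleotides. The Emx1 window held 4 GC boxes, beginning at bases 81, 118, 126 and 130 of the window, and the last 2 overlap. The Nes window held GC boxes at bases 178 and 189. The Emx2 window held 2 overlapping GC boxes at bases 79 and 83 and a homeodomain core at base 287. The GC box was searched as GGGCGG and was held by 35.7% of all 32851 RefSeq promoter windows of this length. The homeodomain core, TAATTA, was held by 5.29% of them. The letters of the SOX core were ACAAAG, found in 18.7% of windows, and those of the TATA box were TATAAA, found in 13.6%. No motif overlaps another in these 4 windows apart from the GC boxes named. The GC content was 58.7% in the Pax6 and Nes windows, 64.3% in Emx2 and 74% in Emx1, against a median of 52.7% over all windows. CpG dinucleotides numbered 18 in the Pax6 and Nes windows, 26 in Emx2 and 37 in Emx1, against a median of 7. In the GENCODE annotation used for symbols, Emx1 begins at base 85187438 of chr6 and Emx2 at base 59458372 of chr19. The Emx1 and Emx2 windows thus lie wholly inside the annotated genes, after those starts. These matches describe letters in a window, not occupied sites.

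Sox2 (ENSMUSG00000074637.7, chr3:34650405-34652461, plus strand, mm10), which encodes a SOX transcription factor that maintains neural progenitors, had 0 counts in all 6 mutant and all 6 control libraries. Sox2 lies wholly inside the span of Sox2ot, a long noncoding gene on the same strand (chr3:34104270-34682619), although no exon of Sox2 overlaps an exon of Sox2ot. Sox2ot itself collected 26048 counts. Among protein-coding genes placed in this way, inside a same-strand gene without exon overlap, 253 of 258 (98.1%) had 0 counts in every library. Where the enclosing gene lay on the opposite strand only, 295 of 743 (39.7%) did, and among genes with no overlap 3813 of 11675 (32.7%) did. Sox1, a close relative of Sox2, sits in the same way inside Sox1ot and also had 0 counts. No level of Sox2 can therefore be read from these counts, and a limit computed from a count of 0 would not bound its expression. The same placement of zeros shows that reads were assigned over whole gene spans, introns included, and by strand.

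**Figure D1:**
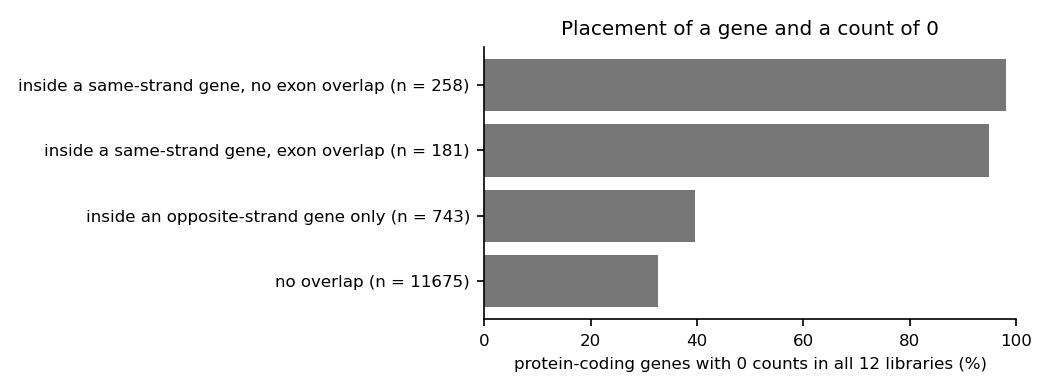
Percentage of protein-coding genes with 0 counts in all 12 libraries (x axis), by placement relative to other annotated genes (y axis, number of genes in brackets). Genes nested inside a same-strand gene, as Sox2 is, stand at 98.1% without and 95% with exon overlap, against 39.7% inside an opposite-strand gene and 32.7% with no overlap.

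Sox2ot measured 1693, 1546, 1722, 769, 763 and 1928 CPM in mutants 1 to 6, against 540, 1920, 1594, 408, 813 and 950 CPM in controls 1 to 6. The libraries fell into a high and a low set in both genotypes, so the groups overlapped. The log2 fold change of Sox2ot was 0.57 (SE 0.605, adjusted p = 0.881, edgeR). Its level is not used below as a measure of Sox2.

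Because reads were counted over the whole span, the genes were ordered by mean CPM per kilobase of span over the 12 libraries. Vim stood highest at 21.8 ± 6.26 CPM per kb (SD, n = 12), followed by Fabp7 at 18.9 ± 6.14 and Nes at 11.8 ± 3.38. Emx1 (3.04 ± 1.09), Pax6 (2.62 ± 0.580), Emx2 (2.19 ± 1.19), Slc1a3 (1.68 ± 0.404) and Nr2e1 (1.34 ± 0.283) formed a lower set on the same scale. Hopx was at 0.0867 CPM per kb. Neighbours in this order overlapped in their ranges over libraries except Nes against Emx1 and Nr2e1 against Hopx. The short filament and lipid-binding genes thus stood well above the transcription factors per kb of span, a length that includes introns. Exons make up 6.42 of 9.37 kb in Nes, but 2.18 of 17.0 kb in Emx1 and 8.54 of 76.6 kb in Slc1a3. An order per kb of exon can therefore differ, and it was not computed. Slc1a3, spread over 76.6 kb, stood with the transcription factors on this scale despite a mean of 129 CPM. Vim, Fabp7 and Nes lay at the 98.8, 98.6 and 97.6 percentile of tested genes per kb of span, and Nr2e1 at the 54.8 percentile.

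The comparison of mutants with controls asked whether radial glia genes depend on Arid1a in this cortex. None of the 8 tested genes passed (adjusted p from 0.309 to 0.979, edgeR quasi-likelihood test with litter and sex as terms). Across all 10678 genes tested 0.215% passed (0.159% lower and 0.0562% higher), so a count of 0 of 8 is no departure from that background. At an unadjusted p under 0.05, 2 of the 8 genes, Nes and Emx2, were lower, against 8.78% of all genes in either direction, and DESeq2 and limma-voom also passed 0 of the 8. The fitted difference was negative for 6 of the 8 genes, with a median log2 fold change of -0.18, against -0.00088 over all tested genes. No gene separated the genotypes completely: mutant and control ranges overlapped for all 8, while 1.26% of all tested genes had ranges that did not overlap. In bulk tissue, fewer radial glia and less RNA per radial glial cell cannot be told apart. The p-values measure the spread between these samples, since the labels give no embryo numbers.

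**Figure D2:**
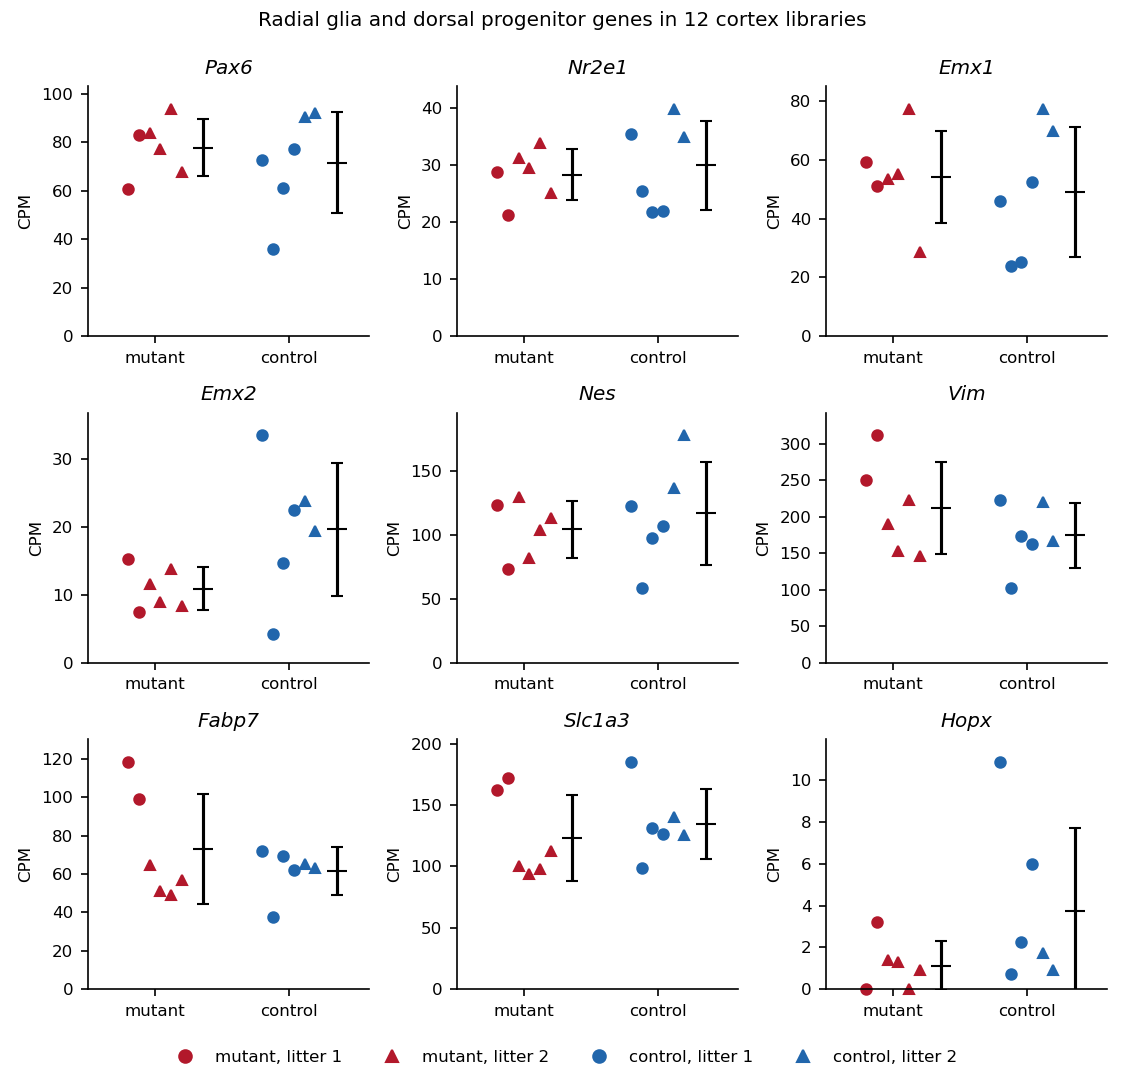
Level in CPM (y axis) of the 9 genes with counts in each library, mutants left and controls right, circles for litter 1 and triangles for litter 2, with the mean and SD of 6 libraries in black. Mutant and control ranges overlap in every panel; Fabp7, Vim and Slc1a3 are high in the litter 1 mutants, and control 2 is the lowest circle for Pax6, Emx1, Emx2, Nes, Vim and Fabp7.

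Among the transcription factors, Emx2 (ENSMUSG00000043969.4, chr19:59458372-59465357, plus strand) had the lowest fitted value. It measured 15.2, 7.45, 11.6, 8.99, 13.7 and 8.36 CPM in mutants 1 to 6, against 33.4, 4.24, 14.7, 22.4, 23.7 and 19.3 CPM in controls 1 to 6. Every mutant lay below controls 1, 4, 5 and 6, while control 2 lay below every mutant. The means were 10.9 ± 3.12 CPM in the mutants and 19.6 ± 9.76 CPM in the controls (SD, n = 6 each), and the log2 fold change was -1.19 (SE 0.398, 95% interval -2.04 to -0.33, adjusted p = 0.336, edgeR). Counts behind these values were only 6 to 80 per library, so that counting alone gives a relative error of about 26.2%. The value was -0.81 without control 1, -1.72 without control 6 and -0.89 in litter 2 alone (adjusted p = 0.290). With no filter on low counts the same difference passed (-1.20, adjusted p = 0.000795). The fit without the filter passed 261 of 24283 genes for genotype, against 23 of 10678 with the filter.

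The antisense gene Emx2os, which overlaps Emx2 on the other strand, gave a similar picture. It measured 25.8, 16.0, 23.8, 12.8, 18.0 and 6.50 CPM in mutants 1 to 6, against 54.8, 9.89, 27.9, 41.1, 34.1 and 22.5 CPM in controls 1 to 6. Both genes were highest in control 1, with controls 4 and 5 next, and both were low in control 2. For Emx2os the log2 fold change was -0.96 (SE 0.470, adjusted p = 0.618, edgeR).

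Emx2 is strongest toward the medial edge of the cortex, and the summed level of 9 markers of cortical hem and hippocampus, each counted in some library, was read beside it. Those markers summed to 450, 552, 436, 434, 481 and 346 CPM in mutants 1 to 6, against 641, 464, 528, 610, 550 and 536 CPM in controls 1 to 6. Most of this sum came from Zbtb18, which is broadly expressed in cortex, with a mutant mean of 274.5 ± 41.5 CPM and a control mean of 367 ± 44.2 CPM, and from Wnt7b, with a mutant mean of 118 ± 20.6 CPM and a control mean of 109 ± 29.1 CPM (SD over 6 libraries). For the hem gene Lmx1a the mutant mean was 8.38 CPM and the control mean 7.16 CPM. Controls 1, 4 and 5, the highest for Emx2, were 3 of the 4 highest libraries for these markers, with mutant 2 the other, and their part in the Emx2 difference was not tested. The 11 striatum markers, each counted in some library, had sums between 455 and 1703 CPM in mutants, and between 451 and 1778 CPM in controls. The median sum was higher in mutants, at 834.5 CPM against 589.4 CPM in controls. Foxp1 made up a large part of these sums, with a mutant mean of 457 ± 85.4 CPM and a control mean of 484 ± 146 CPM (SD over 6 libraries). The covariate used in the fit was instead a striatum score, the mean standardised log2 CPM of the 6 markers that passed the filter. All 6 had a positive fitted genotype value, that is higher in mutants, but none passed (edgeR). With this score as a covariate the log2 fold change of Emx2 was -0.83 (adjusted p = 0.391, edgeR).

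Emx1 (ENSMUSG00000033726.8, chr6:85187438-85204462, plus strand), whose promoter drives the Cre, measured 59.3, 51.1, 53.4, 55.2, 77.5 and 28.8 CPM in mutants 1 to 6, against 46.0, 24.0, 25.2, 52.6, 77.5 and 69.9 CPM in controls 1 to 6. Both groups spanned nearly the same range, and low values fell on mutant 6 and controls 2 and 3. The log2 fold change was -0.13 (SE 0.348, 95% interval -0.91 to 0.65, adjusted p = 0.979, edgeR). The interval is wide enough to hold a change of over 0.6 in either direction. Mutant 6 and controls 2 and 3 were among the 4 libraries with the highest striatum sums, at 1703, 1778 and 1078 CPM, whereas the other of these 4, mutant 1 (1257 CPM), was among the higher libraries for Emx1. With the striatum score as a covariate the sign turned, at 0.05.

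Pax6 (ENSMUSG00000027168.21, chr2:105668900-105697364, plus strand), a paired-box factor of dorsal radial glia, measured 60.8, 83.0, 83.9, 77.1, 93.8 and 67.8 CPM in mutants 1 to 6, against 72.7, 36.0, 61.0, 77.3, 90.2 and 92.0 CPM in controls 1 to 6. Control 2 stood apart on the low side and the other libraries of both groups intermixed. The means were 77.7 ± 11.9 CPM in the mutants and 71.55 ± 20.9 CPM in the controls (SD, n = 6 each), and the log2 fold change was -0.09 (SE 0.187, 95% interval -0.49 to 0.31, adjusted p = 0.966, edgeR). The mean is higher in mutants while the fitted value is negative: without the litter and sex terms the value was 0.14. The antisense gene Pax6os1 measured 12.2 ± 2.15 CPM in the mutants and 9.85 ± 3.05 CPM in the controls (SD, n = 6 each).

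Nr2e1 (ENSMUSG00000019803.11, chr10:42561963-42583632, minus strand), an orphan nuclear receptor that keeps neural stem cells dividing, measured 28.9, 21.3, 31.3, 29.5, 33.8 and 25.1 CPM in mutants 1 to 6, against 35.5, 25.4, 21.9, 22.0, 39.9 and 35.0 CPM in controls 1 to 6. The highest library had 1.88 times the level of the lowest, the smallest such ratio among the 8 genes. The SD was 15.9% of the mean in mutants and 26.0% in controls. Counting alone gives about 16.0% over the 12 libraries together, a figure that was not computed within each group. The log2 fold change was -0.33 (SE 0.180, 95% interval -0.71 to 0.04, adjusted p = 0.642, edgeR). It was -0.17 without control 1, -0.55 without control 6 and -0.04 without the litter and sex terms.

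Nes (ENSMUSG00000004891.16, chr3:87971078-87980451, plus strand), which encodes the intermediate filament nestin, measured 123, 73.4, 129.9, 82.2, 104 and 113 CPM in mutants 1 to 6, against 122.5, 58.6, 97.6, 107, 137 and 178 CPM in controls 1 to 6. The 2 controls of litter 2 were highest of all and lay above each of the 4 mutants of their litter, whereas in litter 1 the groups intermixed. The log2 fold change was -0.54 (SE 0.176, 95% interval -0.92 to -0.16, adjusted p = 0.309, edgeR). In litter 2 alone it was -0.65 (SE 0.129, adjusted p = 0.0457), which passed, and in litter 1 alone, where the sex term leaves control 1 as the sole control that informs it, it was -0.35 (adjusted p = 0.920). With no filter on low counts it also passed (-0.57, adjusted p = 0.000761), and without the litter and sex terms it was -0.15 (adjusted p = 0.872). Over all genes, 64 of 11154 passed for genotype in litter 2 alone and 261 of 24283 with no filter.

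Vim (ENSMUSG00000026728.9, chr2:13573927-13582826, plus strand), which encodes the intermediate filament vimentin, measured 251, 312, 189.9, 153, 224 and 146 CPM in mutants 1 to 6, against 223, 102, 174, 162, 221 and 166.5 CPM in controls 1 to 6. Mutants 1 and 2, both of litter 1, were the highest libraries, and control 2 was the lowest. The means were 212 ± 63.2 CPM in the mutants and 175 ± 44.6 CPM in the controls (SD, n = 6 each), with a log2 fold change of 0.15 (SE 0.260, 95% interval -0.43 to 0.73, adjusted p = 0.955, edgeR). It was 0.0080 without mutant 2, 0.0148 without control 6, 0.33 without control 5 and -0.0752 in litter 2 alone, so no sign can be given for Vim. Vessel and meningeal cells also express Vim. The 8 markers of meninges and fibroblasts summed to 19.2 CPM in mutant 2, the highest library for Vim and the lowest of all 12 for these markers, and to 65.4 CPM in control 5, their highest. The 8 endothelial markers summed to 56.5 to 83.6 CPM in the mutants and 57.2 to 83.3 CPM in controls, and mutants 1 and 2, at 83.6 and 81.9 CPM, had 2 of the 3 highest sums; their part in the level of Vim was not tested.

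Fabp7 (ENSMUSG00000019874.11, chr10:57784881-57788450, plus strand), the brain lipid-binding protein of radial glia, measured 118.5, 99.0, 64.5, 51.4, 49.2 and 56.7 CPM in mutants 1 to 6, against 72.3, 37.4, 69.3, 62.4, 65.4 and 63.0 CPM in controls 1 to 6. The 2 mutants of litter 1 exceeded every other library, and 3 of the 4 mutants of litter 2 lay below both controls of that litter. The log2 fold change was 0.14 (SE 0.226, 95% interval -0.35 to 0.63, adjusted p = 0.940, edgeR). It lay between 0.016 and 0.25 with 1 library left out, and it had opposite signs in litter 2 alone (-0.20) and litter 1 alone (0.57).

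Slc1a3 (ENSMUSG00000005360.14, chr15:8634124-8710764, minus strand), which encodes the glutamate transporter GLAST, measured 163, 172, 100.2, 93.75, 98.05 and 112 CPM in mutants 1 to 6, against 185, 98.9, 131, 127, 141 and 126 CPM in controls 1 to 6. All 4 mutants of litter 2 lay below both controls of that litter. In litter 1 the female mutants 1 and 2 lay above the male controls 2, 3 and 4, but below control 1, the only female control there. The log2 fold change was -0.23 (SE 0.156, 95% interval -0.57 to 0.10, adjusted p = 0.747, edgeR). It was -0.11 without control 5 and -0.0597 without the sex term.

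Hopx (ENSMUSG00000059325.14, chr5:77086988-77115121, minus strand), an atypical homeodomain protein known in human as a marker of outer radial glia, was close to the limit of counting. It had 0, 3, 5, 1, 0 and 1 counts in mutants 1 to 6, against 26, 1, 6, 16, 3 and 2 counts in controls 1 to 6. Controls 1 and 4 held most of the 64 counts. In CPM these were 10.9 in control 1 and 5.97 in control 4, against at most 3.19 in any mutant. Hopx did not pass the filter; fitted without the filter the log2 fold change of Hopx was -1.54 (SE 0.669, adjusted p = 0.487, edgeR), and in mutants 1 and 5 its count of 0 allows up to 4.56 and 1.28 CPM (3 counts, counting error only).

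**Figure D3:**
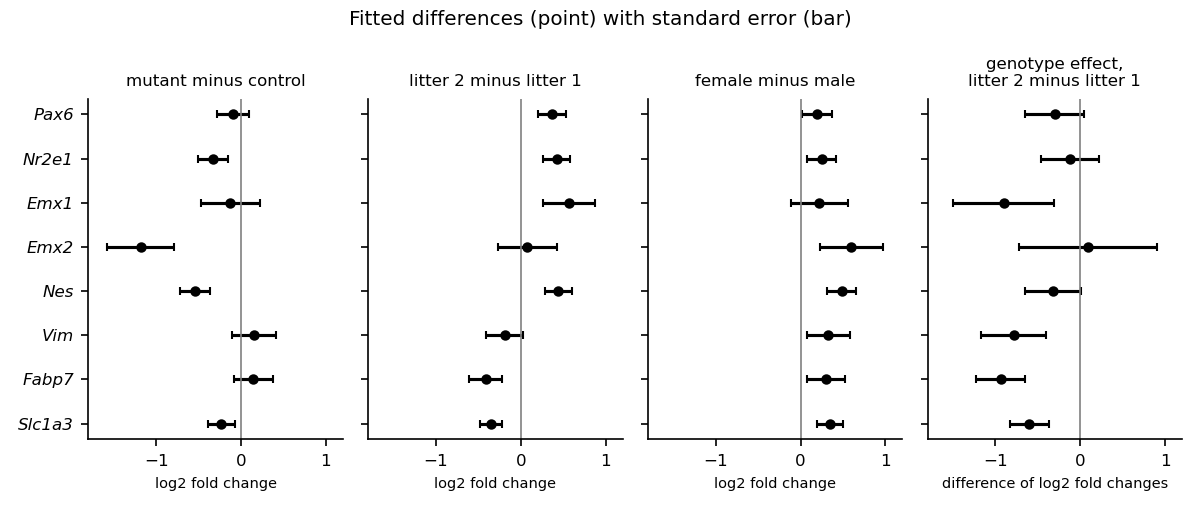
Fitted log2 differences (x axis; points) with standard errors (bars) for the 8 tested genes (y axis) in 4 comparisons: genotype, litter, sex, and the difference of the genotype effect between litters. Emx2 (-1.19) and Nes (-0.54) lie lowest for genotype, the litter panel runs from -0.42 for Fabp7 to 0.56 for Emx1, all 8 points of the sex panel are positive, and 7 of 8 points of the last panel are negative.

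Litter 2 was compared with litter 1 in the same model. None of the 8 genes passed (adjusted p from 0.186 to 0.956, edgeR), against 1.31% of all genes tested (0.618% lower and 0.693% higher in litter 2), and 0 passed in DESeq2 or limma-voom. At an unadjusted p under 0.05 there were 4 of 8, Nes, Nr2e1, Pax6 and Slc1a3, against 15.4% of all genes. The transcription factors and nestin had positive values: 0.56 for Emx1 (SE 0.306), 0.44 for Nes (SE 0.156), 0.42 for Nr2e1 (SE 0.160) and 0.37 for Pax6 (SE 0.164). The glial genes had negative values, -0.42 for Fabp7 (SE 0.193) and -0.35 for Slc1a3 (SE 0.135), as had Vim (-0.19, SE 0.220), and Emx2 stood at 0.08 (SE 0.350). In controls alone the litter value was 0.0148 for Fabp7, -0.0928 for Slc1a3 and 0.18 for Vim, so these values did not hold there, while it was 0.92 for Emx1, 0.58 for Nes, 0.48 for Pax6 and 0.45 for Nr2e1. Pax6 measured 67.8 to 93.8 CPM in litter 2 and 36.0 to 83.0 CPM in litter 1, and Fabp7 49.2 to 65.4 CPM in litter 2 and 37.4 to 118.5 CPM in litter 1. With no filter on low counts, 3 of the litter values passed: 0.39 for Pax6 (adjusted p = 0.0463), 0.46 for Nes (adjusted p = 0.00189) and -0.39 for Fabp7 (adjusted p = 0.0480). Of all 24283 genes in that fit, 328 passed as higher and 265 as lower in litter 2. With the filter these numbers were 74 and 66 of 10678.

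Whether the genotype effect differed between litters was tested with an interaction term. None of the 8 genes passed (adjusted p from 0.529 to 0.998), and 0% of all genes did in edgeR; DESeq2 and limma-voom also passed 0 of the 8. At an unadjusted p under 0.05 there were 2 of 8, against 7.27% of all genes. These were Fabp7, at -0.94 (SE 0.293, unadjusted p = 0.00529), and Slc1a3, at -0.60 (SE 0.231, unadjusted p = 0.0189), in the quasi-likelihood fit. Fabp7 averaged 55.5 CPM in the 4 mutants and 64.2 CPM in the 2 controls of litter 2, and 109 CPM in the 2 mutants and 60.4 CPM in the 4 controls of litter 1. Slc1a3 averaged 101 CPM in mutants against 133 CPM in controls of litter 2, and 167.5 CPM in mutants against 135 CPM in controls of litter 1. Vim had the same shape, 178 CPM in mutants against 194 CPM in controls of litter 2 and 281 CPM in mutants against 165 CPM in controls of litter 1, with an interaction of -0.78 (SE 0.384, adjusted p = 0.726, edgeR). Control 5 moved these values most: without it the interaction was -0.22 for Vim and -0.23 for Slc1a3, and over all fits with 1 library left out it ran from -1.10 to -0.22 for Vim, from -0.89 to -0.23 for Slc1a3 and from -1.06 to -0.75 for Fabp7. Only mutants 1 and 2 carry the litter 1 side of these values, and mutant 1 was the shallowest library. The averages take no account of sex: mutants 1 and 2 and control 1 were female, and controls 2, 3 and 4 male. Slc1a3 measured 185 CPM in control 1, above both mutants of litter 1. With sex as a term, the genotype value in litter 1 alone was -0.15 for Slc1a3, 0.33 for Vim and 0.57 for Fabp7.

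Females were higher than males in fitted value for all 8 genes, with a median log2 difference of 0.31 against 0.0042 over all genes, but none passed (adjusted p from 0.692 to 0.925, edgeR). Of all genes 0.00937% passed, at an unadjusted p under 0.05 there were 2 of 8 against 6.95% of all genes, and DESeq2 and limma-voom passed 0 of the 8. Nes had 0.49 (SE 0.173) and Slc1a3 0.34 (SE 0.152). Males numbered 1 of 6 mutants and 4 of 6 controls, and the lowest library for 6 of the genes, control 2, was male. With any 1 library left out, the Nes value lay between 0.385 and 0.543.

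A list of 30 other genes of radial glia, Notch, SOX and metabolic genes among them, was read beside these 10. Of its 27 tested members none passed for genotype (18 negative, median log2 fold change -0.13, edgeR). N-cadherin, Cdh2, which joins radial glia at the ventricle, stood at 1291 ± 72.0 CPM in the mutants and 1635 ± 69.8 CPM in the controls (SD, n = 6 each), -0.31 with an adjusted p of 0.217, and Ptprz1, a receptor phosphatase of radial glia, stood at -0.30 (SE 0.119, adjusted p = 0.417). The 2 genes were chosen after their values were seen. For litter, 1 of the 27 passed, against 1.31% of all genes tested. Tnc, which encodes the matrix protein tenascin C, fell in litter 2 (-1.95, SE 0.147, adjusted p = 2.15e-05, edgeR). Tnc measured 41.1 to 74.0 CPM in litter 2 and 152 to 314 CPM in litter 1, with no overlap. The share of all genes without overlap between litters was not computed. Of the 27 litter values 12 were negative, with a median of 0.08.

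Of 17 other regulators of the dorsal telencephalon 14 were tested and none passed for genotype or litter (8 and 7 negative, edgeR). The lowest genotype value belonged to Lhx2 (-0.75, SE 0.392, adjusted p = 0.668, edgeR), a LIM homeobox gene known for setting cortical identity, which was named after its values were seen. Lhx2 stood at 120.4 ± 45.8 CPM in the mutants and 178 ± 56.5 CPM in the controls (SD, n = 6 each).

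The descendants of radial glia gave the context for these levels. None of the 9 tested genes of intermediate progenitors passed for genotype or litter, with summed levels of 535.5 to 725 CPM in the mutants and 425 to 649.6 CPM in controls. None of the 14 cell cycle genes passed either. Their sums were 758 to 1426 CPM in litter 2 and 687 to 1107 CPM in litter 1. Of their litter values 14 of 14 were positive, with a median of 0.43, against a median of -0.0056 over all genes. Of 11 tested genes of projection neurons 4 passed for litter, against 1.31% of all genes tested. Stmn2 fell in litter 2 (-0.53, SE 0.122, adjusted p = 0.0420), and Tbr1 (0.74, adjusted p = 0.00125), Sox5 (0.79, adjusted p = 0.0123) and Bcl11b (0.68, adjusted p = 0.0281), factors of deep-layer neurons, rose in litter 2 in the same edgeR fit. The red cell genes Hba-a2 (-1.92, adjusted p = 0.0139) and Hbb-bs (-1.87, adjusted p = 0.0443) fell in litter 2, with sums of 8.68 to 34.4 CPM in litter 2 and 20.9 to 63.1 CPM in litter 1; globin genes have near-identical copies, among which counts may be split. The part of these cells in the litter values of the radial glia genes was not tested.

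Control 2 stood apart before any correlation was computed. It was the lowest of 12 libraries for Pax6, Emx1, Emx2, Nes, Vim and Fabp7, the third lowest for Slc1a3 and the fifth lowest for Nr2e1. The mean standardised log2 CPM over the 8 genes was -1.70 in control 2, against -0.56 to 0.82 in the other 11 libraries. Control 2 also had the highest sum of striatum markers, 1778 CPM, against 455 to 1703 CPM in the mutants and 451 to 1078 CPM in the other controls, and the part of striatal tissue in its low levels was not tested. Mutant 6, with the next highest striatum sum, was the lowest mutant for Emx1 and Vim but not for Pax6, Nes or Fabp7. For Pax6 the 4 libraries with the highest striatum sums, control 2, mutant 6, mutant 1 and control 3, were the 4 lowest libraries of all, at 36.0, 67.8, 60.8 and 61.0 CPM.

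**Figure D4:**
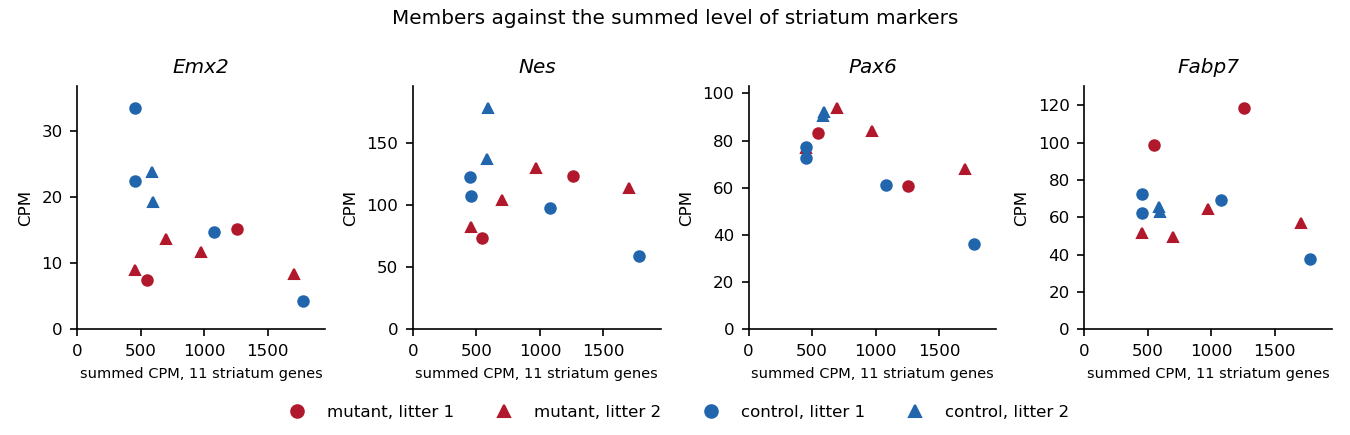
Level in CPM (y axis) of Emx2, Nes, Pax6 and Fabp7 against the summed CPM of 11 striatum markers (x axis) in 12 libraries, mutants in red and controls in blue, circles for litter 1 and triangles for litter 2. Control 2, the blue circle at 1778 CPM of striatum markers, is lowest in each panel, and for Pax6 mutant 6 at 1703 CPM, mutant 1 at 1257 CPM and control 3 at 1078 CPM are the next lowest, whereas for Nes these 3 lie among the other libraries.

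The levels of the 8 genes were then compared library by library over the 28 pairs they form. The median Pearson r of log2 CPM was 0.496 and 26 of 28 pairs were positive, against a median of -0.0010 over all pairs of the 10678 tested genes. After removal of litter, sex and genotype the median was 0.582. All pairs share the same 12 libraries with their depth and dissection, and without control 2 the median was 0.165. For 4 pairs the correlation passed (permutation p with Benjamini-Hochberg adjustment over the 28 pairs), for 1 pair it passed by rank as well, and without control 2 it passed for 0 of 28. The permutations moved libraries freely across litter, sex and genotype, so these p-values take no account of those terms. Within litter 1 and within litter 2 the correlation passed for 0 pairs, and the residual values were given no test.

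**Figure D5:**
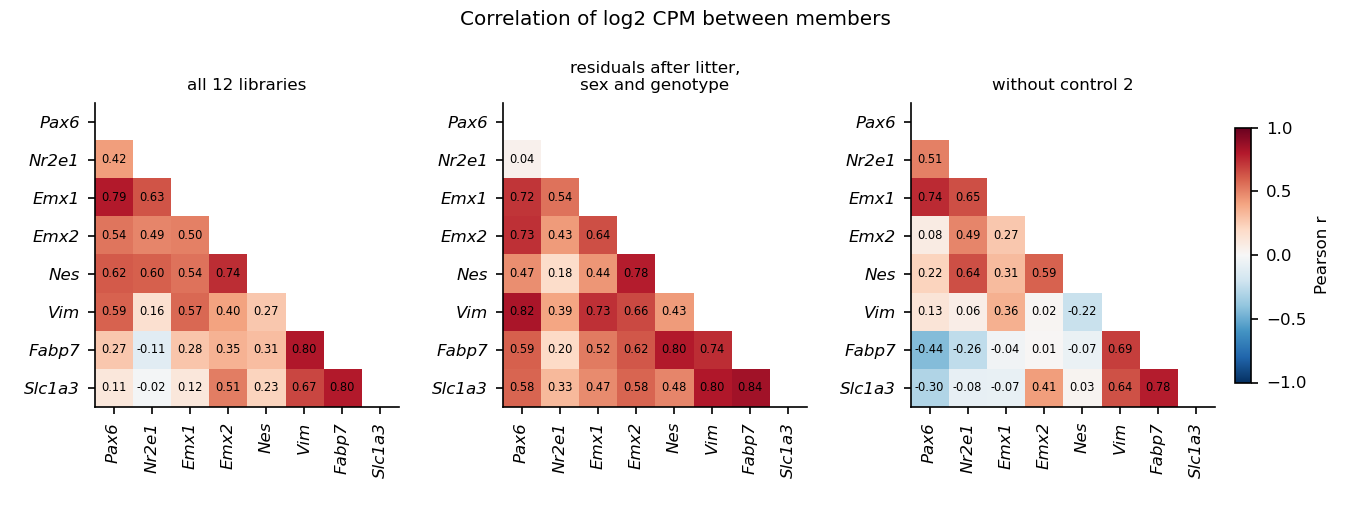
Pearson r of log2 CPM for each pair of the 8 tested genes, in all 12 libraries (left), on residuals after litter, sex and genotype (middle) and without control 2, scaled as before (right), on a colour scale from -1 to 1. Vim, Fabp7 and Slc1a3 stay positive with each other in all 3 panels, while Pax6 with Fabp7 turns negative without control 2.

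Fabp7 and Slc1a3, the 2 glial genes, had r = 0.795 (n = 12, permutation p = 0.00112, adjusted p = 0.0157) and rho = 0.888 (permutation p = 0.00028, adjusted p = 0.00784). Without mutant 1 and control 2, the libraries farthest from the median of Fabp7, r was 0.82. It was 0.705 within litter 2 and 0.821 within litter 1 (n = 6 each, exact permutation p = 0.143 and 0.0486). This pair was the one that passed by both measures. Its r was positive within each litter, as was that of every other pair but Pax6 with Nr2e1 (-0.0983 within litter 1).

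Pax6 and Emx1, the pair of dorsal transcription factors shown above, had r = 0.794 (n = 12, permutation p = 0.00089, adjusted p = 0.0157) and rho = 0.734 (permutation p = 0.00869, adjusted p = 0.111). Without mutant 1 and control 2 it was 0.956, and it was 0.952 within litter 2 and 0.721 within litter 1. Nes and Emx2 had r = 0.742 (n = 12, permutation p = 0.00594, adjusted p = 0.0416) and rho = 0.671 (permutation p = 0.0197, adjusted p = 0.137). Without controls 2 and 6 the r of Nes and Emx2 was 0.613 (permutation p = 0.0609), and it was 0.703 within litter 2 and 0.922 within litter 1.

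Vim and Fabp7 had r = 0.798 (n = 12, permutation p = 0.00235, adjusted p = 0.0219) and rho = 0.713 (permutation p = 0.0119, adjusted p = 0.111). Without mutant 2 and control 2 it was 0.566 (permutation p = 0.0667), so the relation rests in part on those libraries, and it was 0.116 within litter 2 against 0.931 within litter 1. The lowest pairs were Nr2e1 with Fabp7 (r = -0.111) and Nr2e1 with Slc1a3 (r = -0.0185), neither of which differed from 0 (permutation p = 0.731 and 0.954, n = 12). Both were positive within each litter, at 0.389 and 0.552 in litter 2 and 0.0859 and 0.424 in litter 1. Pax6 with Fabp7 had r = 0.267, and -0.436 without control 2.

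Among 4069 other tested genes that averaged 50 CPM or more, the genes most like the mean profile of the 8 were listed by Pearson r over the 12 libraries, as a description. These were the kinase gene Nek6 (0.925), the catenin gene Ctnna1 (0.888), Rgs20 (0.884), the protease gene Adamts6 (0.88), Tbc1d4 (0.879) and the receptor gene Notch2 (0.87). The gene most like a single one was Creb5 for Pax6 (0.941), Plagl1 for Emx1 (0.931), Fbxo10 for Emx2 (0.948), Lyrm4 for Nr2e1 (0.832), Numa1 for Nes (0.883), Tbc1d4 for Vim (0.947), Cct5 for Fabp7 (0.949) and Pdzrn3 for Slc1a3 (0.852). The candidates were many and the libraries few, and nothing about shared function is read from these values.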

How the data were processed

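RNA from 12 cortices was sequenced as ClickSeq libraries, which carry random molecular tags. The submitters' processing notes name HTSeq 0.6.1p1, STAR 2.5.2a, UMI-tools 0.5.3 and cutadapt 1.13, besides edgeR 3.20.9 and bcl2fastq 2.17, with mm10 as the build; counting settings were not stated there. The deposited files hold raw counts per Ensembl gene, not normalized by the authors. The 5 closing entries that name no gene (20.7 to 31.6% of a file) were left out. Symbols came from GENCODE M21: 47648 identifiers matched with version, 3985 without and 279 not at all. Gene totals of 643197 to 3525121 set the counting error, and the degree to which tags were collapsed is unknown, so intervals and limits cover counting error only. No pair of libraries was a copy (chi-square per degree of freedom from 1.86).

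Genes were kept by filterByExpr (minimum count of 10), scaled by TMM (factors 0.961 to 1.04) and modelled in edgeR 4.0.16 under R 4.3.3 with litter, sex and genotype (8 residual degrees of freedom, robust quasi-likelihood). The fit covered all 10678 genes with Benjamini-Hochberg adjustment over all of them and a threshold of 0.05. SE is the log2 fold change divided by the square root of F. CPM use TMM library sizes; correlations use log2 CPM with a prior count of 2 and 100000 permutations (exact within litters). DESeq2 1.42.0, limma-voom (limma 3.58.1), other scalings, filters, model terms, subsets and libraries left out were alternatives. Scripts were tested on simulated data. Python 3.11.15, pandas 2.3.3, SciPy 1.17.1 and matplotlib 3.10.9 were used. The genes and lists were chosen with earlier results of these data known. Named outside the 10 genes are up to 4 genes per list with an adjusted p under 0.05 for genotype or litter, Arid1a, and the genes most alike in profile. Outside this rule, Cdh2, Ptprz1 and Lhx2 were named after their values were seen. Zbtb18, Wnt7b, Lmx1a, Rspo2, Prox1 and Foxp1 were named because they bear on a summed marker level. The antisense and enclosing genes of the 10 and Sox1, at 0 counts, were named too.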

Additional observations from a re-analysis of the deposited data

Results flagged for a closer look

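In 1 of 22 groups of 6 libraries tested for a value far from the rest, Fabp7 in controls, 1 library stood apart: control 2 had 37.4 CPM, against 62.4 to 72.3 CPM in the other 5 controls. Its gap to the nearest library was 0.715 of the range of the group, above the 95% limit of Dixon's test for 6 samples. Chance alone flags about 1 in 20 groups. Control 2 was also the lowest library for Pax6, Emx1, Emx2, Nes and Vim, where its gap did not pass the limit.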

How the results depend on the processing

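Among the 8 tested genes, 0 passed for genotype, against 1 in litter 2 alone (Nes) and 2 with no filter (Nes, Emx2); for litter 0 passed against 3 with no filter, and for sex 0 against 1 with no filter (Nes, 0.50). Each of these counts was 0 with any library left out, and the interaction count was 0 under every alternative run. Over all genes, 23 passed for genotype, against 95 with DESeq2, 44 in females, 5 in litter 1 alone, 64 in litter 2 alone, 261 with no filter, 57 with the striatum covariate, 4 after thinning to equal depth, 141 without the litter and sex terms, 77 without the sex term, 0 without the 2 shallowest libraries, and 6 to 55 with 1 library left out. For litter 140 passed, against 264 with DESeq2, 56 in controls alone, 593 with no filter, 14 thinned, 45 without the shallowest libraries and 27 to 212 with 1 left out. For sex 1 passed, against 2 with DESeq2, 76 with no filter, 5 without the shallowest and 1 to 17 with 1 left out; for the interaction 0, against 6 with DESeq2, 75 with no filter, 2 with the covariate and 0 to 1 with 1 left out. Of the pairs 4 passed, against 1 thinned, 1 without the shallowest, 0 within litter 1, 0 within litter 2 and 0 to 5 with 1 left out. The genotype value of Pax6 (-0.09) became 0.0301 with the covariate, 0.14 without litter and sex, 0.0273 without litter and 0.0026 without sex; Emx1 (-0.13) became 0.25 in litter 1 alone, 0.0496 with the covariate, 0.16 without litter and sex and 0.0375 without litter, and ran from -0.23 to 0.0083 with 1 library left out; in litter 2 alone Vim became -0.0752 and Fabp7 -0.20. In controls alone the litter value was 0.18 for Vim and 0.0148 for Fabp7, and that of Emx2 ran from -0.24 to 0.43 with 1 library left out. The interaction became 0.0909 for Nes and 0.0863 for Nr2e1 without the shallowest libraries, 0.34 for Nr2e1 thinned, and for Emx2 -0.0309 with DESeq2 and -0.0687 without sex; with 1 left out it ran from -0.65 to 0.0872 for Nes, -0.444 to 0.25 for Nr2e1 and -0.50 to 0.85 for Emx2. The cause of these shifts was not tested. No paired analysis was run because the labels match no mutant to a control, and litter is a term of the model. Emx2 did not pass the filter after thinning, and residual correlations were given no test. Depth limits Emx2 and Hopx most.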
